A study of Mus musculus with 43 samples.

Results

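Brain gene expression was compared between AppNLGF mice given CDDO-2P-Im and wild type mice, to describe which differences from wild type were present in the treated mice. The comparison took the 13 treated AppNLGF libraries and the 4 wild type libraries from the table of 6 month old mice, and so 17 of the 28 libraries in that table and 17 of the 43 in the whole series. AppNLGF mice are AppNL-G-F/NL-G-F knock-in mice, which carry disease-linked mutations in their own App gene and form amyloid plaques without a transgene. CDDO-2P-Im is a synthetic triterpenoid that activates NRF2. Oral doses of 30 µmol/kg were given 3 times in each of 4 weeks, and the vehicle was 10% DMSO and 10% Cremophor EL in PBS. The wild type libraries carry the label vehicle, but the dosing schedule is stated for the AppNLGF mice and not for them. The 11 libraries of AppNLGF mice given vehicle stand between the groups: they share the genotype of the treated mice and the vehicle label of the wild type mice. Treated and wild type mice differ in both genotype and treatment, and the parts of the 2 cannot be told apart in this comparison. The tissue label is brain, with no region named, and the labels do not say that each library came from a separate mouse, so the p-values measure the spread between libraries.

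Microglia that surround amyloid plaques change from a resting state, marked by genes such as P2ry12 and Tmem119, to a phagocytic state that depends on the receptor Trem2 and its adaptor Tyrobp. Astrocytes near plaques raise the filament protein Gfap and complement C4b. NRF2 is a transcription factor that is held back by KEAP1. When released, it switches on antioxidant, glutathione and iron-storage genes through antioxidant response elements in DNA.

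Values are the deposited TPM, in which each transcript's estimated share of a library is set to a fixed total. They keep no read numbers, so the depth behind a value is unknown. A gene row without a symbol, ENSMUSG00000118866, held 30.7 to 33.7% of the TPM of a wild type library and 28.3 to 40.0% of a treated library. Because of the fixed total, every test was also run after median-ratio scaling, which divides each library by its median ratio to the average library. Scale factors were 0.999 to 1.07 in wild type and 0.812 to 1.14 in treated libraries. The 5 treated libraries numbered 1 to 5 had factors of 0.812 to 0.984, and the other 8 had 0.888 to 1.14. Vehicle libraries numbered 1 to 5 had factors of 0.913 to 0.979, and those numbered 6 and above had 1.04 to 1.10. No wild type library had the female RNA Xist above 10 TPM, against 7 of the 13 treated libraries and 5 of the 11 given vehicle, so sex is uneven between the groups. Treated libraries 1 and 2 were the lowest for several glial genes, with Cst7 at 4.94 and 3.78 TPM, and no library held values identical to another. Neuronal Mapt, at 111 ± 4.63 TPM (SD, n = 4) in wild type and 104 ± 12.3 (SD, n = 13) in treated libraries, and the myelin gene Cnp, at 78.0 ± 8.53 and 65.0 ± 9.24, were present as in brain. App itself was at 469 ± 17.9 and 433 ± 40.8 TPM, a level that does not show the knock-in mutations.

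Among the genes called higher than wild type in treated mice, the largest differences were in genes of plaque-associated microglia and reactive astrocytes, led by Cst7, Ccl6, Clec7a, Ccl3, Itgax and Gfap. Some genes that did not pass had differences as large, among them the sex-linked genes Xist at 3.44 and Ddx3y at -2.11 (adjusted p = 0.644 for each). Of 16776 genes with a mean of at least 1 TPM, 41 were higher in treated libraries (0.244% of those tested) and 3 were lower (0.0179%) at an adjusted p below 0.05. After median-ratio scaling 109 were higher (0.65%) and 11 lower (0.0656%), and 43 of the 44 genes kept their call; Tmem138 lost it, with an adjusted p of 0.0976. The median difference over all tested genes was -0.06 before and 0.00 after scaling, on the log2(TPM + 1) scale used for every fold change below. For genes with low TPM, this scale gives a smaller change than the ratio of TPM does. Without adjustment, 345 genes were higher and 951 lower at p below 0.05 with deposited values, and 1023 were higher and 924 lower after scaling. The 13 treated libraries all lay above the 4 wild type libraries for 26 genes (0.155%) and all below them for 17 (0.101%).

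**Figure D1:**
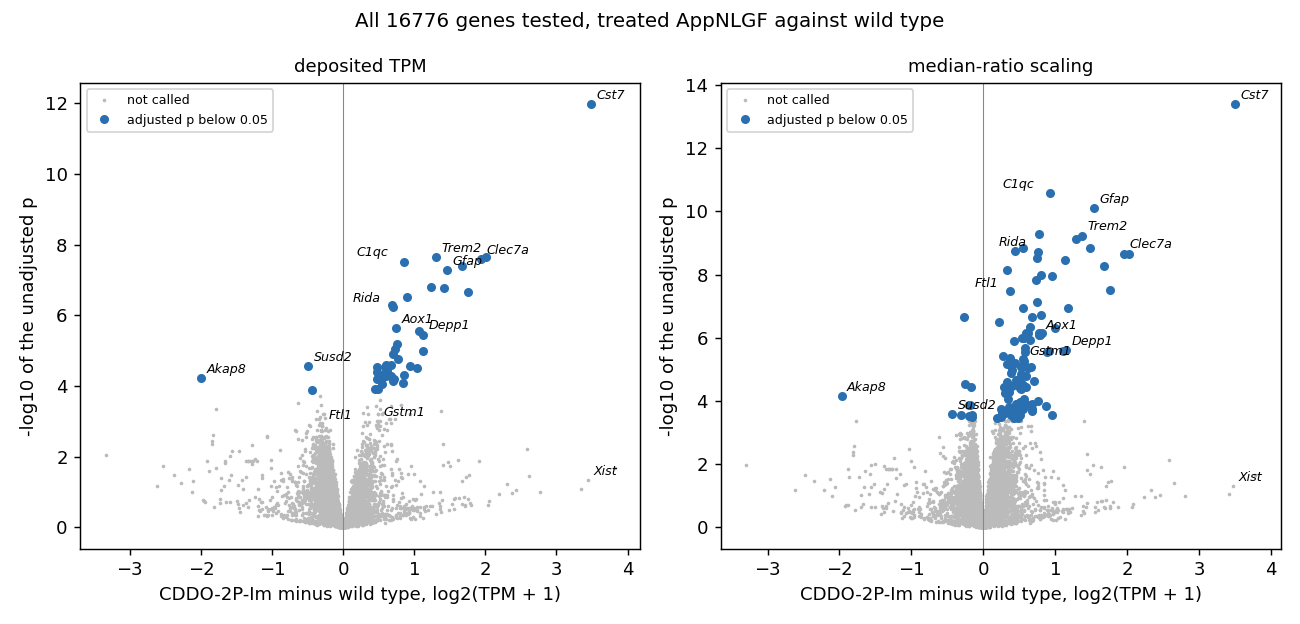
Difference between treated and wild type libraries on the log2(TPM + 1) scale (x axis) against the -log10 of the unadjusted p (y axis) for every gene tested, from deposited TPM on the left and after median-ratio scaling on the right; filled circles mark adjusted p below 0.05. Called genes lie mostly on the right, 41 against 3 with deposited values and 109 against 11 after scaling, with Cst7 farthest out at 3.49 and 3.50.

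In the same fit, AppNLGF vehicle libraries had 37 genes higher (0.221%) and 10 lower (0.0596%) than wild type, or 93 (0.554%) and 23 (0.137%) after median-ratio scaling. Both comparisons use the same 4 wild type libraries, so their values are set side by side here and their likeness is not counted as a result. Whether the treated difference from wild type differs from the vehicle difference was tested directly as treated against vehicle, where the wild type mean cancels. That test called 8 genes higher (0.0477%) and 1 lower (0.00596%) in treated libraries, and 41 (0.244%) and 7 (0.0417%) after scaling. Among the 41 genes higher than wild type, treated exceeded vehicle libraries at the threshold for 3, Rida, Aox1 and Depp1, and fell below them for none. For the other 38 the difference from vehicle did not pass, which does not show that the levels were alike.

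Plaque-associated microglial genes held the 5 largest differences among the named genes called higher. Of 36 list members tested out of 38, 16 were higher in treated mice than in wild type and none lower, or 23 and none after median-ratio scaling, against 0.244% and 0.65% of all genes. Their median difference was 0.54 for treated and 0.61 for vehicle mice, against -0.06 and -0.03 over all genes. The deposited count fell to 10 without wild type library 1 and to 9 without library 4, and was 9 when only treated and wild type libraries were fitted. Cst7 (chr2:150570415-150578944, GRCm38), which encodes the lysosomal protease inhibitor cystatin F, read 0.370, 0.146, 0 and 0.259 TPM in the 4 wild type libraries. In treated libraries Cst7 ran from 3.78 through a median of 15.1 to 22.5, so the groups did not overlap. The difference was 3.49 (SE 0.29, adjusted p = 1.75e-08), beside 3.72 (SE 0.30) in vehicle mice. Treated minus vehicle was -0.23, with a 95% interval from -0.65 to 0.19 (adjusted p = 0.807).

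Trem2 (chr17:48346401-48354147), the lipid-sensing receptor of this state, was at 7.00, 7.98, 6.22 and 7.09 TPM in wild type libraries. It ran from 9.40 through a median of 20.2 to 23.6 in treated libraries, again without overlap. The difference was 1.31 (SE 0.17, adjusted p = 1.01e-04) in treated and 1.41 (SE 0.17) in vehicle mice. Between treated and vehicle libraries it was -0.11, with an interval from -0.36 to 0.14. Tyrobp, the signalling adaptor of Trem2, was listed at 0 in the gene row of every wild type library and of 10 treated libraries, because most of its TPM stand in separate transcript rows of the table. With those rows added, an analysis chosen after seeing the data, Tyrobp was at 18.0, 17.6, 16.2 and 21.8 TPM in wild type libraries. The treated libraries then ran from 26.1 to 70.5, above all 4, and the difference was 1.40 (SE 0.18, adjusted p = 6.95e-05).

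Chemokines and surface receptors of these cells also had no treated library within the wild type range. Ccl6 was 2.01 (SE 0.26), the fungal glucan receptor Clec7a 1.94 (SE 0.26) and Ccl3 1.76 (SE 0.26) above wild type, with adjusted p of 1.01e-04, 1.01e-04 and 3.66e-04. Ccl3 was listed at 0 in 3 wild type libraries and at 0.366 TPM in the fourth, while the lowest treated library held 0.576. Itgax, the integrin CD11c, was at 0 to 0.202 TPM in wild type and at 0.772 to 4.33 in treated libraries, a difference of 1.67 (SE 0.22, adjusted p = 1.09e-04). None of these 4 genes passed against vehicle, with treated minus vehicle between -0.35 for Ccl6 and -0.11 for Itgax and Ccl3.

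Lyz2, the lysozyme of phagocytes, read 5.06, 6.31, 4.45 and 4.58 TPM in wild type and ran from 7.17 through 18.1 to 21.8 in treated libraries. The groups did not overlap, and the difference was 1.42 (SE 0.21, adjusted p = 3.18e-04), beside 1.40 in vehicle mice. Mpeg1, a pore-forming protein of macrophages, was at 6.03 to 7.20 TPM in wild type and 7.78 to 21.5 in treated libraries, a difference of 1.07 (SE 0.18, adjusted p = 0.00314). Among called genes outside the rule for named genes, the inhibitory receptor gene Lag3 differed by 0.75 (adjusted p = 0.00650) and Cebpa, a transcription factor gene of myeloid cells, by 0.47 (adjusted p = 0.0286).

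Lysosomal members of the list had smaller differences at higher TPM. Ctsd, the protease cathepsin D, read 120, 127, 132 and 129 TPM in wild type and ran from 132 through a median of 228 to 265 in treated libraries. The lowest treated library touched the wild type range, and 12 of 13 lay above it. The difference was 0.70 (SE 0.13, adjusted p = 0.0107) beside 0.82 (SE 0.14) in vehicle mice. Ctsz, cathepsin Z, was at 17.7 to 19.2 TPM in wild type and 21.7 to 38.6 in treated libraries, a difference of 0.68 (SE 0.11, adjusted p = 7.02e-04). Grn, which encodes the lysosomal protein progranulin, rose by 0.48 (SE 0.10, adjusted p = 0.0182). In the wider list of lysosome and autophagy genes, Grn was the 1 of 26 that passed (against 0.244% of all genes). Ctsa, Npc2 and Laptm5 were among the 5 called after median-ratio scaling (against 0.65%). Leaving out 1 wild type library (number 1, 2 or 4) ended the calls of Ctsd, Grn and the membrane proteins Cd52 and Ly86, with the highest adjusted p at 0.0998, 0.150, 0.145 and 0.138, in that order. Cd68, the lysosomal membrane protein of phagocytes, had a difference of 1.12 (SE 0.21, adjusted p = 0.00922) and lost its call without wild type library 4 (adjusted p = 0.141).

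Resting-state genes came next. Of 22 homeostatic microglial genes tested, 2 were higher in treated mice (against 0.244% of all genes), the Fc receptor-like gene Fcrls and the Fc receptor gene Fcgr3, with differences of 0.71 (SE 0.15) and 0.67 (SE 0.13) and adjusted p of 0.0300 and 0.0182. After median-ratio scaling Csf1r and Itgam were among those that passed as well. The median of the list was 0.20 in treated and 0.30 in vehicle mice, and the treated median was 0.11 with transcript rows added and 0.10 in libraries without Xist. The count fell to 0 without wild type library 1, 2 or 4. P2ry12, a purinergic receptor of resting microglia, was at 12.5 ± 1.05 TPM (SD, n = 4) in wild type and 13.6 ± 3.54 (SD, n = 13) in treated libraries, a difference of 0.06 with an interval from -0.32 to 0.45. Its gene row holds 58.2% of its TPM, and with transcript rows added the difference was -0.13 (adjusted p = 0.910). Tmem119, another resting marker, was at 7.57 ± 1.20 and 7.69 ± 1.25 TPM, a difference of 0.02 with an interval from -0.20 to 0.23. Summed over the list, homeostatic genes held 1061 to 1167 TPM in wild type and 922 to 1389 in treated libraries. In bulk tissue, a change in the number of such cells and a change in RNA per cell cannot be told apart. Fcgr3 lost its call when wild type library 1, 2 or 4 was left out (adjusted p up to 0.139), and Fcrls when any 1 wild type library or treated library 8, 10, 11, 12 or 13 was (up to 0.250).

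**Figure D2:**
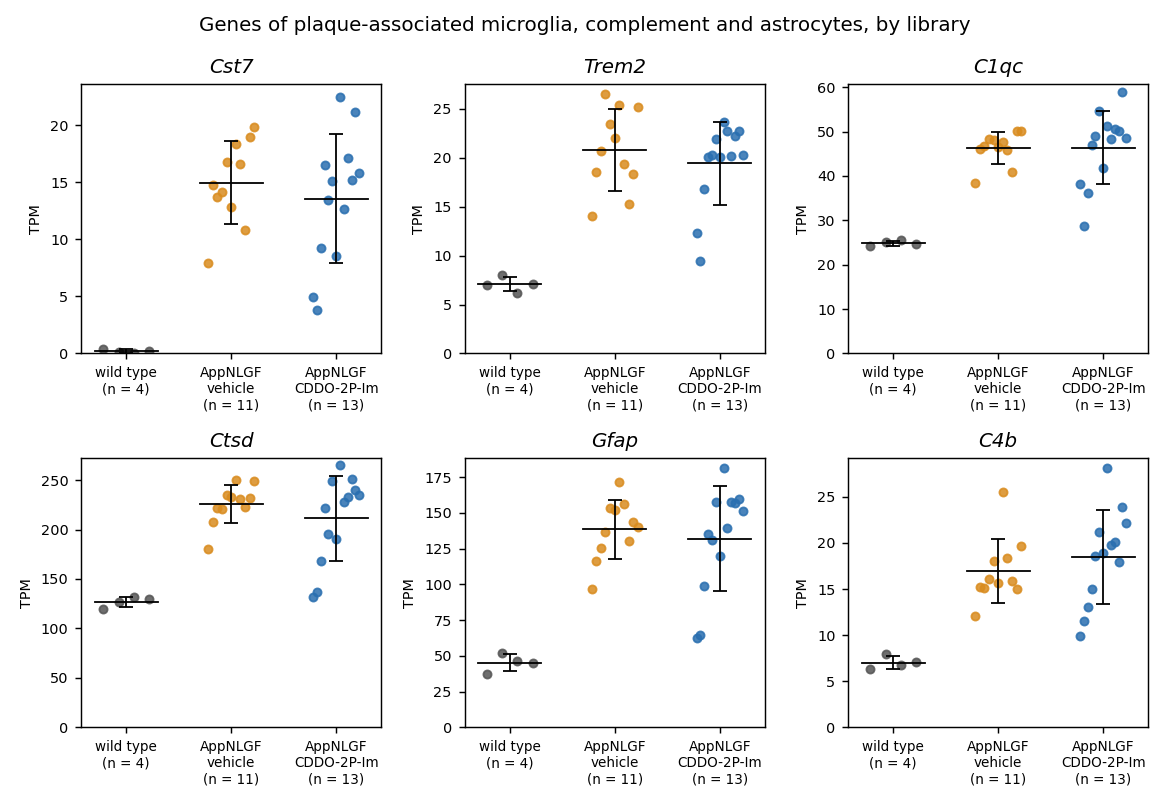
TPM (y axis) of 6 glial genes in each library of the 3 groups; points are libraries, bars the mean and SD. Treated libraries lie above all 4 wild type libraries for Cst7, Trem2, C1qc, Gfap and C4b and for all but 1 library of Ctsd, and 2 treated libraries are low for Cst7 and Gfap.

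Complement and phagocytic receptor genes had the highest share called of the 36 lists. Of 14 tested out of 21, 8 were higher in treated mice and none lower (against 0.244% and 0.0179% of all genes), with a median of 0.59 beside 0.74 in vehicle mice. They were C1qa, C1qb, C1qc, C4b, the Fc receptor genes Fcgr2b, Fcgr3 and Fcer1g, and the integrin Itgb2. C1qc, a chain of the complement starter protein C1q, was at 24.2, 25.1, 25.6 and 24.7 TPM in wild type libraries. It ran from 28.7 through 48.5 to 59.0 in treated libraries, with no overlap, a difference of 0.85 (SE 0.11, adjusted p = 1.01e-04). C1qa and C1qb, the other chains, differed by 0.73 (SE 0.14, adjusted p = 0.00855) and 0.61 (SE 0.13, adjusted p = 0.0253). C1qb lost its call when any 1 of the 4 wild type libraries was left out (adjusted p up to 0.179), and C1qa without number 1 or 4 (up to 0.0862). C4b was at 6.31 to 7.97 TPM in wild type and 9.86 to 28.1 in treated libraries, a difference of 1.23 (SE 0.18, adjusted p = 3.18e-04) beside 1.14 in vehicle mice. The count for this list fell to 2 without wild type library 1 or 4, to 3 without library 2 and to 5 without library 3.

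Promoter stretches of C1qb, Ctsz and Aox1 are shown because the drug activates NRF2, and the core of its element can be looked for in the letters. RefSeq promoter windows on GRCm38.p6, from 250 bases before to 50 after each start, were searched on both strands for TGACNNNGC. Capitals mark a match, and each stretch of 120 bases reads 5′ to 3′ along the gene and overlaps no annotated exon. The first 2 genes were higher in both treated and vehicle mice than in wild type, and the third was higher in treated mice than in vehicle mice. They lie at chr4:136886261-136886380 (minus strand), chr2:174439100-174439219 (minus strand) and chr1:58029789-58029908 (plus strand).
C1qb: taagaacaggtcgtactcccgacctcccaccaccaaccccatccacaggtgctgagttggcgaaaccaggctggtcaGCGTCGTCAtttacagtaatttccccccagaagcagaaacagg
Ctsz: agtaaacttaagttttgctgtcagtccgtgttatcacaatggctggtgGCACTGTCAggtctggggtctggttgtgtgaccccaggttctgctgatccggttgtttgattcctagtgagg
Aox1: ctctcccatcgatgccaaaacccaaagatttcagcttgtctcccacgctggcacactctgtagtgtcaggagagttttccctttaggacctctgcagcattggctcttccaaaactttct
The core TGACNNNGC stood in 5 of the 32 windows found for the 41 higher genes (15.6%), namely C1qb, Ctsd, Ctsz, Itgax and Lyz2, and in 16.4% of the 10388 windows of all tested genes. It stood in 12 of 33 windows of NRF2 target genes (36.4%), and not in those of Aox1, Gstm1 or Ftl1. It also stood in 7 of 21 windows of immediate early genes (33.3%). A match is a description of letters and not a bound site, and a missing match says nothing about sites outside the window.

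Reactive astrocyte genes included the filament gene Gfap (chr11:102887336-102900912). It read 37.5, 52.2, 46.7 and 44.9 TPM in wild type libraries and ran from 62.8 through 140 to 181 in treated libraries. The groups did not overlap, and the difference was 1.47 (SE 0.20, adjusted p = 1.25e-04) beside 1.58 (SE 0.20) in vehicle mice. Of 15 list members tested, 4 were higher (against 0.244% of all genes): Gfap, the protease inhibitor gene Serpina3n, C4b and Osmr, the oncostatin M receptor. Stat3, a transcription factor of astrocyte reactivity, joined them after median-ratio scaling. Serpina3n differed by 0.85 (SE 0.18, adjusted p = 0.0342) and Osmr by 0.55 (SE 0.12, adjusted p = 0.0367). Both lost their calls when any 1 wild type library was left out, and when treated library 6, 10, 11, 12 or 13 was, with adjusted p up to 0.237 and 0.403. Osmr also lost its call without treated library 2, 8 or 9 and with transcript rows added (0.58, adjusted p = 0.126). None of 20 astrocyte identity genes passed in the limma fit in either direction (0 higher and 2 lower at an unadjusted p below 0.05), with a median of -0.04 before scaling and 0.03 after it. Glul, the glutamine synthetase gene, was at 649 ± 40.9 TPM (SD, n = 4) in wild type and 570 ± 84.9 (SD, n = 13) in treated libraries (difference -0.20, adjusted p = 0.644).

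Antigen presentation and interferon genes were mostly below the threshold. None of 10 antigen presentation genes tested passed with deposited values (3 higher at an unadjusted p below 0.05). After scaling 2 passed (against 0.65% of all genes). They were B2m and H2-D1, the light and heavy chains of class I molecules, at 0.57 (adjusted p = 0.00234) and 0.56 (adjusted p = 0.0181). In libraries without Xist, after the same scaling, the differences were 0.39 and 0.38 (adjusted p = 0.150 and 0.190), neither passed, and the list median fell from 0.42 to 0.06. H2-D1 was at 12.9 to 13.8 TPM in wild type and 14.5 to 32.4 in treated libraries, without overlap. Of 13 interferon-stimulated genes tested, Lgals3bp passed (against 0.244% of all genes), with a difference of 0.90 (SE 0.14, adjusted p = 4.66e-04). Lgals3bp encodes a secreted galectin-binding glycoprotein, and with transcript rows added its difference was 0.77 (adjusted p = 0.0750).

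**Figure D3:**
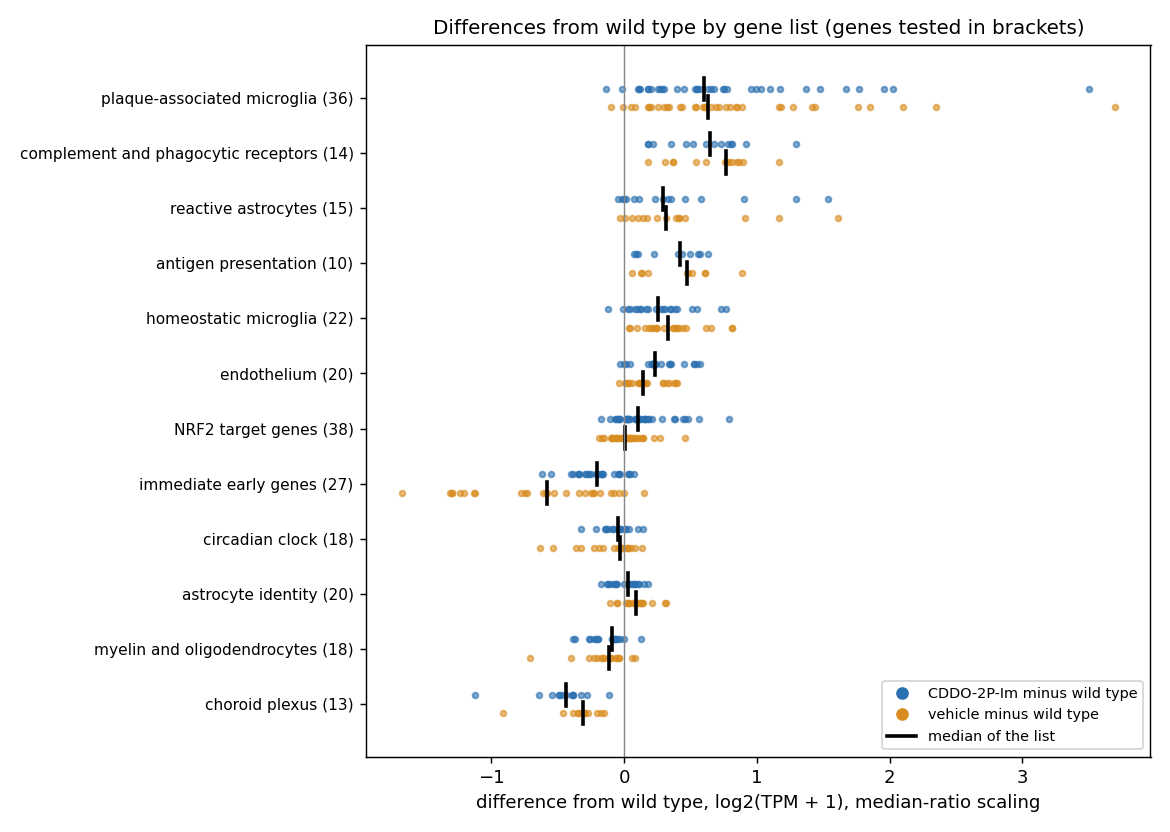
Difference from wild type (x axis, log2(TPM + 1) after median-ratio scaling) of each tested member of 12 gene lists, in treated mice and in vehicle mice; points are genes and black bars the list medians. Microglial and complement lists lie to the right in both groups, and the immediate early genes lie farther left in vehicle than in treated mice.

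Rida, Aox1 and Depp1 were the 3 genes that were higher in treated mice than in both wild type and vehicle mice with deposited values. Rida (chr15:34484021-34495255) encodes an enzyme that removes reactive imines formed in amino acid breakdown. It read 17.3, 14.5, 17.0 and 22.3 TPM in wild type libraries, 19.6 to 24.1 in vehicle libraries, and from 20.4 through 30.4 to 38.7 in treated libraries. Treated libraries 1 and 2 fell within the wild type range and the other 11 lay above it. The difference was 0.70 (SE 0.11, adjusted p = 7.61e-04) from wild type and 0.44 (SE 0.08, adjusted p = 0.0148) from vehicle, beside 0.26 (SE 0.11, adjusted p = 1.00) between vehicle and wild type.

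Aox1 (chr1:58029931-58106413) encodes aldehyde oxidase, a detoxifying enzyme and known NRF2 target. It read 0.995, 1.55, 0.993 and 1.73 TPM in wild type libraries and ran from 1.87 through 3.01 to 4.79 in treated libraries, with no overlap. Vehicle libraries ran from 1.14 to 2.14. The difference was 0.75 (SE 0.13, adjusted p = 0.00276) from wild type and 0.49 (SE 0.09, adjusted p = 0.0232) from vehicle. Depp1 (chr6:116650609-116652794), a FOXO-regulated gene linked to autophagy and peroxisomes, was low in all groups. It read 0.0857, 0.305, 1.05 and 0.264 TPM in wild type libraries and ran from 0.912 through 2.08 to 3.75 in treated libraries, of which 11 lay above wild type library 3. Its difference was 1.12 (SE 0.20, adjusted p = 0.00366) from wild type and 0.90 (SE 0.14, adjusted p = 0.00264) from vehicle. Without wild type library 1 the adjusted p of Depp1 against wild type was 0.0740. Of 23 glucocorticoid and FOXO target genes tested, Depp1 was the 1 that passed (against 0.244% of all genes).

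Other NRF2 targets passed after median-ratio scaling. With deposited values Aox1 was the 1 called of 38 tested out of 40 (against 0.244% of all genes), and after scaling Aox1, Gstm1, Hmox1 and Ftl1 were called (against 0.65%). Their list median was 0.03 before scaling and 0.10 after it, beside -0.02 and 0.01 in vehicle mice. Gstm1, a glutathione transferase, read 100, 114, 120 and 137 TPM in wild type libraries and ran from 113 through 158 to 233 in treated libraries, of which 11 lay above all wild type values. Its difference was 0.49 (SE 0.13, adjusted p = 0.219), and 0.56 (adjusted p = 4.61e-04) after scaling. With transcript rows added it was 0.54 (adjusted p = 0.0440) with no scaling. Gstm1 belongs to a family of near-identical genes whose reads can be split between members. Ftl1, the ferritin light chain that stores iron, read 215, 225, 238 and 231 TPM in wild type and ran from 237 through 279 to 359 in treated libraries, 12 of 13 above wild type. Its difference was 0.30 (SE 0.08, adjusted p = 0.227), and 0.38 (adjusted p = 2.62e-05) after scaling.

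Hmox1, the gene of the enzyme that breaks down haem, had treated and vehicle means above the wild type mean. The means were 2.03 ± 0.237 TPM (SD, n = 4) for wild type, 3.14 ± 0.548 (SD, n = 11) for vehicle and 3.16 ± 0.814 (SD, n = 13) for treated libraries. After scaling its difference from wild type was 0.48 (adjusted p = 0.0480) in treated mice and 0.46 (adjusted p = 0.0855) in vehicle mice, and treated minus vehicle was 0.02 (adjusted p = 0.944). Nqo1, a quinone reductase used as an NRF2 readout, had means of 2.67 ± 0.613 TPM for wild type, 2.39 ± 0.572 for vehicle and 3.63 ± 0.824 for treated libraries. Against wild type its difference was 0.33, with an interval from 0.03 to 0.62 (adjusted p = 0.624), and 0.38 after scaling (adjusted p = 0.262). Against vehicle it passed after scaling, at 0.47 (adjusted p = 0.0269). Gclm, Srxn1 and Txnrd1, of glutathione and thioredoxin metabolism, differed from wild type by 0.02, -0.04 and 0.04, with intervals from -0.23 to 0.27, -0.21 to 0.14 and -0.15 to 0.22. The gene rows of Gclm and Srxn1 hold 57.4% and 58.5% of their TPM. With transcript rows added the differences of the 3 genes were 0.14, -0.12 and 0.02 (limma adjusted p = 0.881, 0.863 and 0.985). None of 11 genes for KEAP1-NRF2 regulators passed (2 lower and 0 higher at an unadjusted p below 0.05), and Nfe2l2, the gene of NRF2, differed by 0.06 (interval from -0.15 to 0.27).

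**Figure D4:**
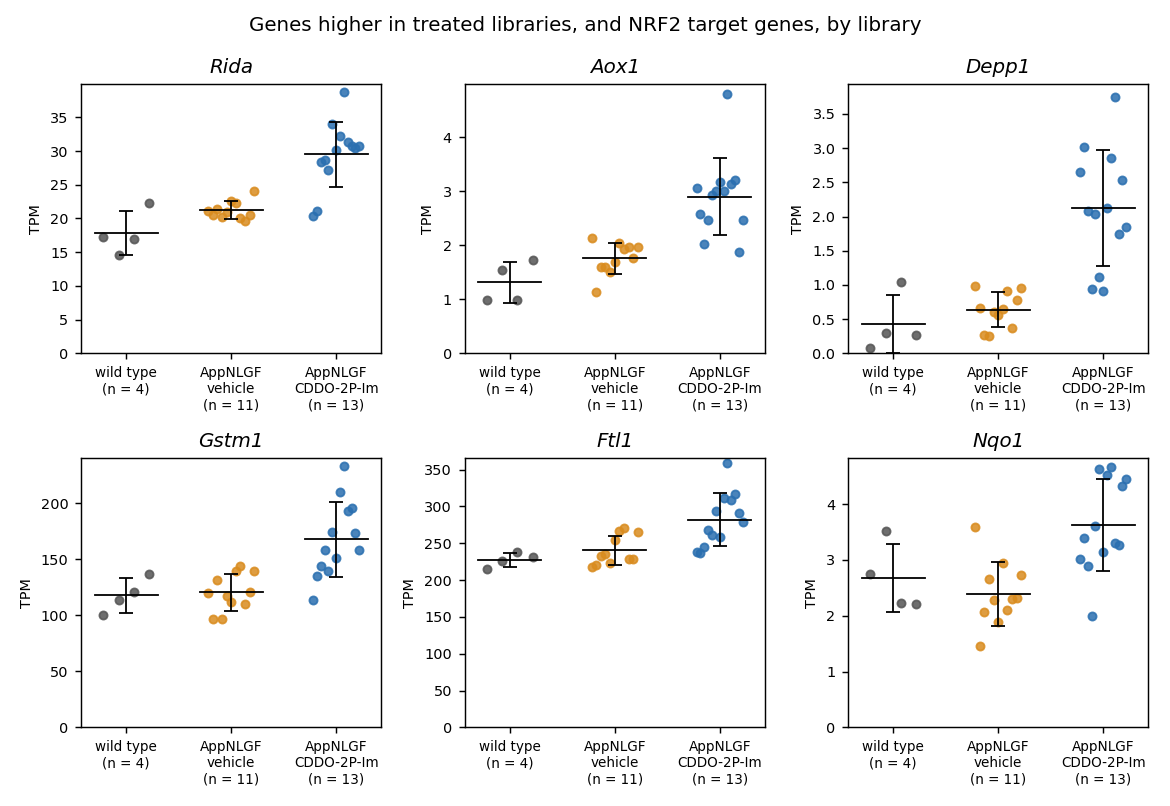
TPM (y axis) of Rida, Aox1, Depp1, Gstm1, Ftl1 and Nqo1 in each library of the 3 groups; points are libraries, bars the mean and SD. Most treated libraries of Rida, Aox1 and Depp1 lie above both other groups, while Nqo1 in 7 treated libraries lies at or below the highest wild type library.

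Immediate early genes, which neurons switch on within minutes of activity, did not pass between treated and wild type mice in either direction: in the limma fit 0 of 27 were higher and 0 lower. At an unadjusted p below 0.05, 3 were lower and 0 higher. In vehicle mice 9 of the 27 were lower than wild type, against 0.0596% of all genes. In treated against vehicle mice 4 were higher, against 0.0477%, and 7 after scaling, against 0.244%. The list median was -0.27 in treated and -0.60 in vehicle mice against wild type. Fos, a transcription factor gene of this response, read 22.3, 31.2, 21.0 and 13.6 TPM in wild type, 2.96 to 8.25 in vehicle, and from 5.22 through 14.5 to 30.0 in treated libraries. Treated libraries overlapped wild type, and 11 of 13 lay above every vehicle library. The difference of Fos from wild type was -0.62, with an interval from -1.20 to -0.04 (adjusted p = 0.644), and from vehicle it was 1.09 (SE 0.20, adjusted p = 0.0232).

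Arc, which acts at synapses, averaged 84.9 ± 25.6 TPM (SD, n = 4) for wild type, 83.2 ± 23.9 (SD, n = 13) for treated and 36.1 ± 14.2 (SD, n = 11) for vehicle libraries. Its difference from wild type was -0.04, with an interval from -0.52 to 0.45, and from vehicle it was 1.20 (SE 0.17, adjusted p = 0.00182). Junb and Nr4a1, transcription factor genes, differed from wild type by -0.37 and -0.34, with intervals from -0.80 to 0.06 and -0.78 to 0.11. Against vehicle they were higher by 0.98 and 0.99 (adjusted p = 0.00264 for each), and all 13 treated libraries of Junb lay above all 11 vehicle libraries. In gene rows alone, Npas4, the factor most specific to neuronal firing, had the widest gap to wild type among the genes of this list that are named here. It read 7.26, 6.90, 4.46 and 4.65 TPM in wild type and 1.41 through 3.55 to 6.02 in treated libraries, of which 11 lay below all wild type values. Its difference of -0.67 had an interval from -1.07 to -0.27 and an adjusted p of 0.283. The gene row of Npas4 holds 53.9% of its TPM. With transcript rows added it ran from 5.22 to 15.1 TPM in wild type and from 4.07 to 9.79 in treated libraries. The difference was then -0.51 (limma adjusted p = 0.694), beside -0.59 for Fos.

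Fos values also went with Xist among treated libraries, and no gene was tested for a difference between libraries with and without Xist. Fos was at 19.1 ± 7.13 TPM (SD, n = 6) in treated libraries without Xist and 11.0 ± 3.87 (SD, n = 7) in those with it, and no wild type library has Xist above 10 TPM. In a fit of libraries without Xist the difference of Fos from wild type was -0.22 and that of Arc 0.12, and the list median was -0.13. With a term for Xist in the fit of all libraries, the list median was -0.16. None of 18 circadian clock genes passed in the limma fit (5 lower and 0 higher at an unadjusted p below 0.05), with a median of -0.11 in treated and -0.06 in vehicle mice, and -0.05 and -0.03 after scaling. After scaling 2 of them were lower in vehicle mice than in wild type (against 0.137% of all genes). In treated against vehicle mice 2 were higher (against 0.244%). Per1, which is both a clock gene and an activity-induced gene, averaged 42.0 ± 7.08 TPM for wild type, 36.9 ± 6.01 for treated and 27.9 ± 3.08 for vehicle libraries.

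**Figure D5:**
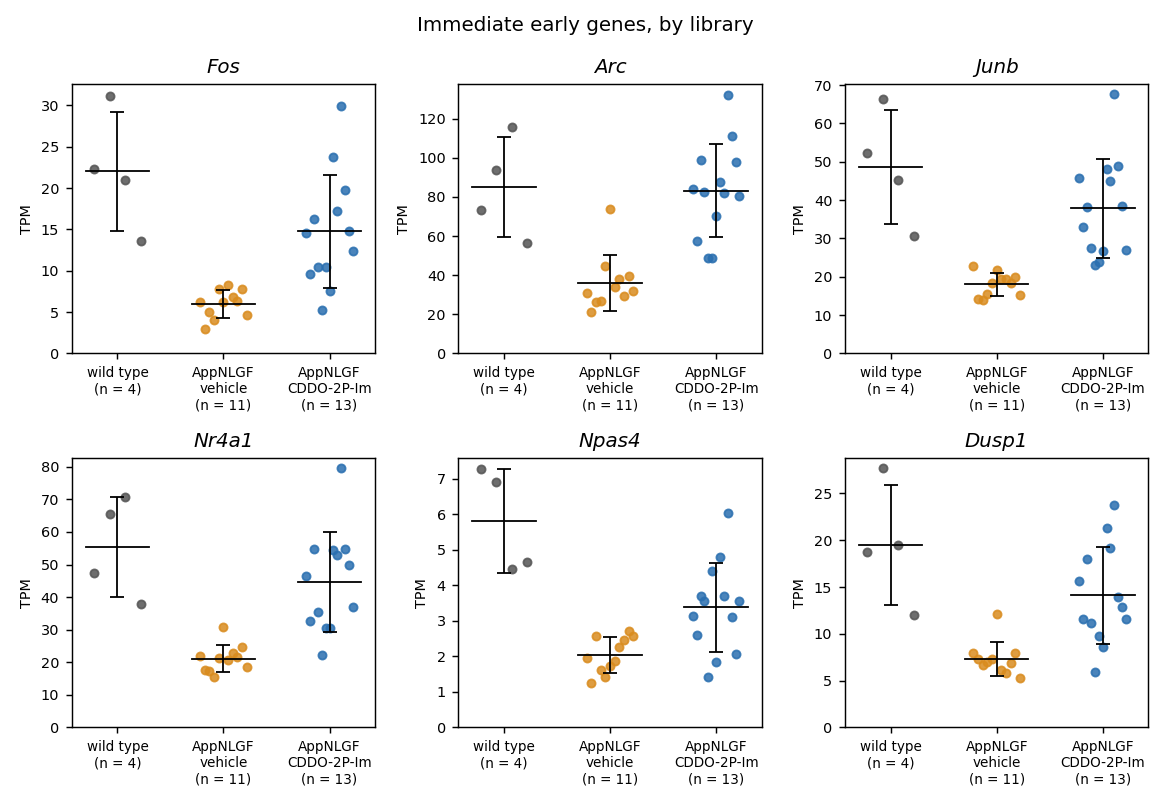
TPM (y axis) of 6 immediate early genes in each library of the 3 groups; points are libraries, bars the mean and SD. Treated libraries overlap wild type for each gene, and vehicle libraries lie low, with Fos at 2.96 to 8.25 against 13.6 to 31.2 in wild type.

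Endothelial genes held 1 call among 20 tested (against 0.244% of all genes), Vwf, which encodes the clotting protein von Willebrand factor. Vwf read 1.81, 2.68, 2.80 and 2.56 TPM in wild type and ran from 2.88 through 3.73 to 4.96 in treated libraries, with no overlap. The difference was 0.47 (SE 0.10, adjusted p = 0.0219) from wild type and 0.20 (adjusted p = 0.619) from vehicle, beside 0.27 (adjusted p = 0.729) between vehicle and wild type. It lost its call without wild type library 1, 2 or 4 (adjusted p up to 0.347) and with transcript rows added (0.29, adjusted p = 0.499). After scaling Cldn5, Abcg2, Ly6c1 and Ly6a, of the barrier endothelium, passed as well. That made 5 of 20 (against 0.65% of all genes), with a median of 0.24 beside 0.14 in vehicle mice. In libraries without Xist none of the 20 passed after scaling, with a median of 0.21.

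The 3 genes called lower, Akap8, Susd2 and Tmem138, did not pass once transcript rows were added to gene rows. Akap8, which encodes a nuclear anchor of protein kinase A, was listed at 7.62, 0, 3.71 and 5.19 TPM in wild type and at 0 in all 13 treated libraries, so no fold is given. That gene row holds 3.26% of the TPM of Akap8. With transcript rows added it was at 32.3 ± 2.31 TPM (SD, n = 4) in wild type and 35.8 ± 3.63 (SD, n = 13) in treated libraries. Susd2, a membrane protein gene, read 4.24, 3.81, 4.75 and 4.11 TPM in wild type and 1.95 to 3.64 in treated libraries, with no overlap and a difference of -0.49 (SE 0.10, adjusted p = 0.0182). Tmem138, a gene of the primary cilium, differed by -0.44 (SE 0.10, adjusted p = 0.0493). With transcript rows added the differences were -0.23 (adjusted p = 0.483) for Susd2 and -0.15 (adjusted p = 0.836) for Tmem138.

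No member of the lists for App and its secretases (16 tested), tau and its kinases (17), myelin (18), mitochondrially encoded genes (13) or nuclear respiratory chain genes (25) passed in either direction. Unadjusted p-values were below 0.05 for 0, 2, 5, 2 and 3 of them, all lower except the mitochondrially encoded genes. Lists for heat shock, splicing, lipid transport, oligodendrocyte precursors, mural cells, metallothioneins, glutamate and GABA receptors and other neuron types also held 0 calls with deposited values, and after scaling Rgs5, a pericyte gene, passed. Among them, all 13 striatal genes had differences below 0 (median -0.20, 5 lower at an unadjusted p below 0.05), as had all 13 GABA-A receptor genes (median -0.19, 2 lower). Of 15 interneuron genes, 1 had a difference above 0 (median -0.15, 5 lower). These are deposited values, for which the median over all 16776 genes was also below 0, at -0.06. Of all genes, 951 were lower and 345 higher at an unadjusted p below 0.05. After scaling, when the median over all genes was -0.003, the striatal, GABA-A receptor and interneuron medians were -0.13, -0.11 and -0.08. Then 0 striatal, 0 GABA-A receptor and 3 interneuron genes were above 0. In vehicle mice the medians with deposited values were -0.23, -0.07 and -0.09, in that order. App differed by -0.12 (interval from -0.25 to 0.01) and Apoe, the lipid carrier of astrocytes, by 0.04 (interval from -0.09 to 0.17). Markers of choroid plexus, deep brain regions and blood varied between libraries, and their part in the results was not tested. All 13 choroid plexus genes tested of 14 had differences below 0, with a median of -0.49, or -0.44 after scaling. None passed the threshold, and 5 were lower at an unadjusted p below 0.05. Their sums were 637 to 938 TPM in wild type and 82.4 to 782 in treated libraries. The 13 thalamic and hypothalamic genes tested of 16 summed to 72.2 to 171 TPM and 49.7 to 184, with a median difference of -0.58, none called and 3 lower at an unadjusted p below 0.05. The 6 blood cell genes tested of 17 summed to 181 to 334 TPM and 107 to 204. Haemoglobin Hba-a1 was at 35.9 ± 19.8 TPM in wild type and 13.3 ± 8.57 in treated libraries (adjusted p = 0.460). Of the 6, only Ptprc had a difference above 0, and none was called with deposited values. Ptprc passed after scaling at 0.54 (limma adjusted p = 0.00443), and with transcript rows added at 0.73 (adjusted p = 0.0398).

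The number of genes called changed with the wild type libraries used. Without wild type library 1 or 4 the genes called higher fell from 41 to 17, and without library 2 to 20. Libraries without Xist, 4 wild type and 6 treated, were fitted together with the vehicle libraries without Xist. With deposited values 2 genes remained called, Cst7 at 3.31 (adjusted p = 0.00338) and Depp1 at 1.39 (adjusted p = 0.00730), and 40 were higher after scaling. This fit held fewer AppNLGF libraries than the main one, and the part of that in the lower counts was not tested. There the plaque-associated list held 1 call with deposited values and 14 after scaling, with medians of 0.48 and 0.52.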

How the data were processed

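Brain RNA was sequenced in all libraries. The authors deposited TPM, and the submitters' processing notes name Salmon, GRCm38 and mm10. Salmon's version and annotation release are left unnamed (not given in the sources used here). In the deposited table are 55804 gene rows and 64708 rows of single transcripts; gene rows hold 88.5 to 91.4% of the total in each library, and they alone were tested. TPM keep no depth, so no counting interval can be given. Groups were read from sample titles.

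The 16776 genes whose mean over the 28 libraries reached 1 TPM were fitted as log2(TPM + 1) with limma 3.58.1 in R 4.3.3, with 1 mean for each of the 3 groups, trended moderation and two-sided tests. P-values were adjusted over all genes tested (Benjamini-Hochberg) and called below 0.05; intervals are 95%. Errors are SD between libraries for TPM and SE of the fit for differences. Median-ratio scaling used 15793 genes. The procedure was tested on simulated data. Symbols matched 51327 gene rows, and positions and names come from GENCODE M21 and RefSeq tables. Figures were drawn with Python, pandas and matplotlib.

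The comparison and the 36 gene lists (645 genes, 580 tested) were chosen with earlier results of these data known. Genes to name were, among called genes without predicted names, the top 15 by rise and the top 15 by fall; from each list, 3 at most, by smallest p; up to 10 called genes, by smallest p against vehicle; and a fixed set of NRF2, amyloid, glial and activity genes; other genes were named after their values were seen. Replicate numbers were checked as pairs. Alternatives were other scalings, pseudocounts, minimum TPM, moderation, library weights, groups fitted, the replicate block, subsets by Xist or library number, and each library left out. Adding transcript rows to gene rows was chosen after seeing the data.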

Additional observations from a re-analysis of the deposited data

Results flagged for a closer look

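Among 68 genes whose 4 wild type libraries were compared, 5 had 1 library far from the other 3, measured as its gap to the nearest library divided by the whole range; chance marks about 5% of such groups. The value was 0.84 for Clec7a, where wild type library 2 held 0.857 TPM and the others up to 0.137. For Ccl3 it was 1, with 0.366 TPM in library 4 and 0 in the rest. Ctsz, at 0.859, was highest in library 4, with 19.2 TPM against 17.7 to 17.9. Ly6a, at 0.919, was highest in library 3, with 16.8 TPM against 9.79 to 10.4. The Y-linked gene Ddx3y, at 0.905, was lowest in library 4, with 8.38 TPM against 15.2 to 16.0. That low value is of the gene row alone, which holds 81.6% of the TPM of Ddx3y. With transcript rows added, the 4 wild type libraries ran from 15.5 to 18.1 TPM.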

How the results depend on the processing

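The 4 wild type libraries and the scaling set how many genes pass, and the depth behind TPM is unknown. Against 41 genes higher and 3 lower, median-ratio scaling gave 109 and 11, quantile normalization 105 and 9, rescaling without mitochondrial and the 20 most abundant genes 106 and 13, and library weights 116 and 16. A pseudocount of 0.1 gave 42 and 1, a minimum of 5 TPM 25 and 0, no minimum 31 and 4, robust moderation 40 and 2, and fitting only the 2 groups compared 12 and 1. Treated libraries numbered 6 and above gave 118 and 3, leaving out treated libraries 1 and 2 together 73 and 2, a term for Xist 20 and 3, and libraries without Xist 2 and 0, or 40 and 5 after median-ratio scaling. Libraries numbered 1 to 5 gave 76 and 5250, with a median over all genes of -0.21, and 19 and 1 after median-ratio scaling. Same-numbered treated and wild type libraries had correlations of -0.0165 to 0.0463 over 4 pairs, of which 3 correlated best under their own number. The labels do not say whether libraries with the same number share anything else, and 4 pairs cannot show it. A fit with the replicate block gave 64 and 3158, with a median of -0.18, and 45 and 5 after median-ratio scaling. Leaving out 1 library at a time gave 17 to 46 higher and 0 to 4 lower. Adding transcript rows gave 44 and 5, or 108 and 23 after median-ratio scaling; 36 of the 44 genes kept their call, and Akap8 changed sign to 0.14 (limma adjusted p = 0.832), or 0.19 (0.364), because its gene row holds little of its TPM. The cause of the other changes was not tested. All 44 called genes kept their direction in every other setting in which they were tested.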

Other observations

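After median-ratio scaling, 8 genes were higher in treated mice than in both wild type and vehicle mice, of which 6 have a gene name that is not a predicted one: Rida, Aox1, Depp1, Gstm1, Ftl1 and Slc40a1. They were named after their values were seen. Slc40a1 encodes ferroportin, which exports iron from cells, and Ftl1 stores iron. Slc40a1 was at 2.09 ± 0.358 TPM (SD, n = 4) in wild type, 2.24 ± 0.214 (SD, n = 11) in vehicle and 3.02 ± 0.747 (SD, n = 13) in treated libraries. Its difference after scaling was 0.41 (SE 0.10, limma adjusted p = 0.0328) from wild type and 0.32 (SE 0.07, adjusted p = 0.0322) from vehicle, and with deposited values neither passed (adjusted p = 0.452 and 0.471).

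Gene rows and transcript rows differ in what they hold for single genes. Of the 16776 genes tested, 2014 have as much TPM in transcript rows as in their gene row, or more, and Tyrobp and Akap8 are such genes.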
